A study of Homo sapiens with 6 samples.

Results

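DNA replication was examined through 45 genes that encode the proteins that license replication origins, unwind the DNA, copy it and supply its deoxynucleotides. The genes were chosen by name, with earlier results of these data known, and each was found once among the 37887 symbols listed. All 45 passed the filter on low counts and were among the 18851 genes tested. RNA-seq had been performed on BT-549 cells, an established human triple-negative breast cancer (TNBC) line, to determine how silencing of the interferon-response transcription factor IRF1 changes the transcriptome. The 3 control samples were titled with a control shRNA and received 0.1% DMSO, and the 3 IRF1shRNA samples were titled with an IRF1 shRNA and received 500 ng/ml doxycycline, which switches on hairpins placed under a tet promoter. The series description names only a tet-IRF1shRNA line given one agent or the other. All 6 samples share the BT-549 background, and nothing is stated on clones or on how long the agents were given. Effects of doxycycline and of the hairpin cannot be told apart, since no control received doxycycline.

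An origin of replication is licensed in G1, when the origin recognition complex (ORC), with CDC6 and CDT1, loads the ring-shaped MCM helicase onto DNA. In S phase, CDC45 and the GINS complex join the ring to form the active helicase, polymerase alpha-primase lays down primers, the RFC complex loads the sliding clamp PCNA, and polymerases delta and epsilon extend the strands while RPA coats the exposed single strands. Many of these genes are transcribed with the cell cycle under E2F factors, and tumor cells that divide quickly express them at high levels.

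Silencing was found in every library. The level of IRF1, as counts scaled by TMM to a common library size (CPM), was 45.3, 48.1 and 51.5 CPM in the control libraries and 13.8, 14.9 and 14.6 CPM in the silenced ones, in the order of the replicate numbers used throughout. This corresponds to 29.9% of the control mean (log2 fold change -1.74 ± 0.06 SE, adjusted p = 4.53e-13). Total counts ranged from 55143808, in IRF1shRNA replicate 2, to 160436234. Every member held at least 600 counts in every library. Mesenchymal markers were abundant in every library, with VIM at 593 to 945, CD44 at 1270 to 1580 and SPARC at 1160 to 1430 CPM. Their levels differed between groups. VIM (-0.56 ± 0.05, adjusted p = 3.10e-08) and CD44 (-0.27 ± 0.04, adjusted p = 4.07e-05) were lower in IRF1shRNA samples, and SPARC (0.20 ± 0.05, adjusted p = 1.66e-03) was higher. EPCAM (at most 0.158 CPM), ESR1 (at most 0.144 CPM) and PGR (at most 0.325 CPM) were near 0. ERBB2 was at 35.0 to 54.8 CPM. The leukocyte marker PTPRC did not exceed 0.757 CPM, and ADIPOQ had no count.

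The replication genes were downregulated in the majority, by modest amounts, and a smaller set was upregulated. Of the 45 members, 27 (60%) were lower and 7 (15.6%) higher in IRF1shRNA samples at an adjusted p under 0.05, and 11 were not called. Across all genes tested, 26.4% were called lower and 24.1% higher, 50.5% in all, so that a call by itself was common in this comparison. The median log2 fold change was -0.16 over the members and -0.0024 over all genes tested. None of the members changed by 2-fold. The range ran from -0.72 for CDC6 to 0.39 for FEN1, and of the 27 that fell, 6 fell by at least 0.5 on the log2 scale, 8 by 0.25 to 0.5 and 13 by less. The 3 control and 3 IRF1shRNA values did not overlap for 27 members with all IRF1shRNA values lower and for 7 with all higher, where 29.5% and 27.3% of all genes tested showed these patterns. Of the members called lower, MCM10 had overlapping groups, and POLE2 had groups apart without a call. Over the 15 alternative settings fitted to every member, 20 members remained lower and 6 remained higher in each one. The share of all genes tested that kept a call in every setting was not counted, so these counts have no background beside them.

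**Figure D1:**
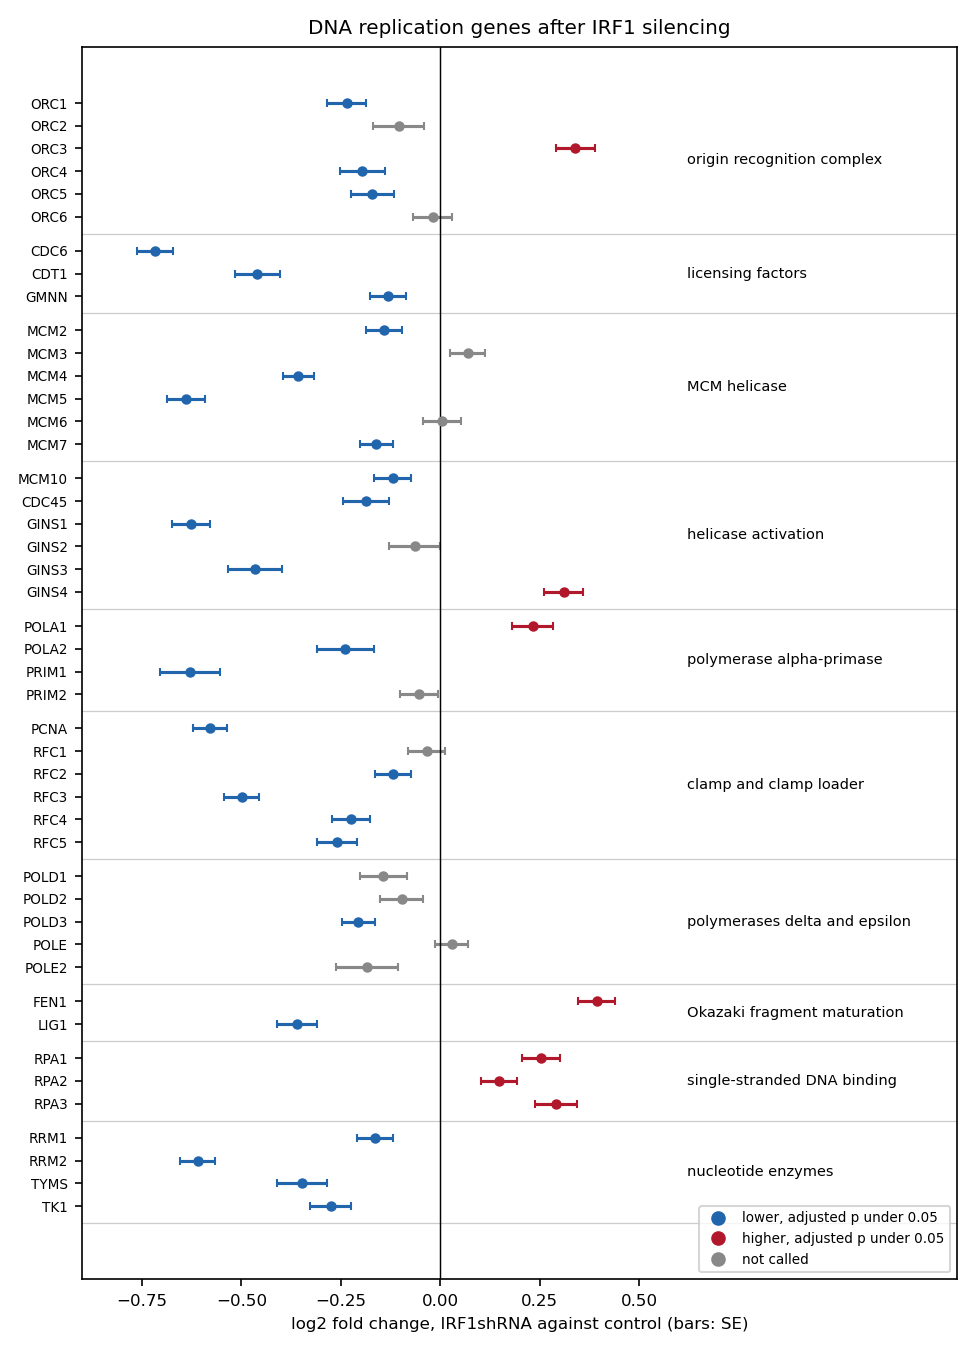
Log2 fold change (x axis) of IRF1shRNA against control samples for the 45 replication genes, grouped by role (y axis), with bars for the standard error and color for the call at an adjusted p under 0.05. CDC6 lies farthest to the left at -0.72 and FEN1 farthest to the right at 0.39, and the 3 RPA genes are the only role with every member to the right of 0 and called.

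Summed over the 45 genes, the level was 4458, 4507 and 4524 CPM in the control samples and 3974, 4119 and 3932 CPM in the IRF1shRNA samples. The IRF1shRNA sums were thus all below the control sums, with means of 4497 ± 34.2 and 4008 ± 98.1 CPM (SD, n = 3 each). The median member stood between -0.0055 and 0.0147 from the control mean on the log2 scale in the control libraries, and between -0.17 and -0.13 in the IRF1shRNA libraries. The median coefficient of variation of the members was 3.29% in control and 4.83% in IRF1shRNA samples, with a maximum of 9.3%. Over the 9270 genes at a mean of at least 10 CPM, the medians were 3.59% and 3.97%. The members thus varied more than those genes in the IRF1shRNA samples. The shallowest library, IRF1shRNA replicate 2, held the highest of the 3 IRF1shRNA values for 29 of the 45 members. Control replicates 1, 2 and 3 held the highest control value for 17, 9 and 19 members. The share over all genes tested was not counted. Whether the depth of IRF1shRNA replicate 2 has a part in its count was not tested. In RNA from whole cultures, fewer cells in S phase and less of each transcript per cell cannot be told apart. The labels do not say whether the triplicates were separate cultures from the time of treatment, so the p-values measure the spread between these samples.

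**Figure D2:**
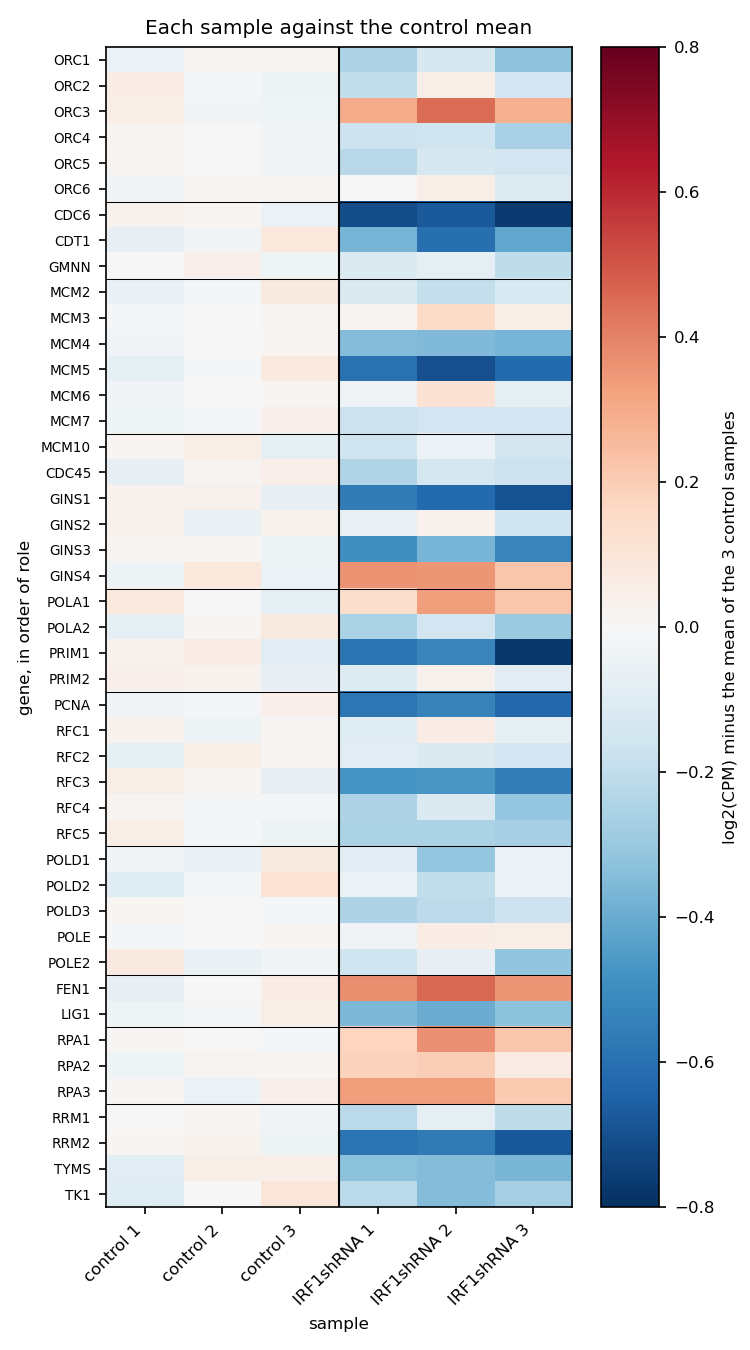
Heat map of the 45 genes (y axis, in order of role) in each of the 6 samples (x axis), colored by log2(CPM) minus the mean of the 3 control samples. The 3 IRF1shRNA columns show the same rows in blue, such as CDC6, MCM5, GINS1, PCNA and RRM2, and the same rows in red, such as ORC3, FEN1 and the 3 RPA genes.

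Promoter sequence is shown for the 3 downregulated and 3 upregulated genes with the smallest adjusted p among those whose sequence could be printed from RefSeq, because E2F factors, which bind near the start of many replication genes, are shared regulators of the group. Each stretch runs 5′ to 3′ from 220 bases before to 30 bases after the transcription start (RefSeq, GRCh38.p14), and capitals mark a match to the E2F site. The stretches lie at chr17:40287659-40287908 (CDC6, plus strand), chr2:10122519-10122768 (RRM2, plus), chr20:5126593-5126842 (PCNA, minus), chr11:61792691-61792940 (FEN1, plus), chr6:87589915-87590164 (ORC3, plus) and chr17:1829785-1830034 (RPA1, plus).
CDC6: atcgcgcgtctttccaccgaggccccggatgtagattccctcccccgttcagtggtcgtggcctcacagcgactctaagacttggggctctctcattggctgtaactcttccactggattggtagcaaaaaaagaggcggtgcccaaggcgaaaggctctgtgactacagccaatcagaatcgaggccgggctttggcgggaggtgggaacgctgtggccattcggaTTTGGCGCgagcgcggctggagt
RRM2: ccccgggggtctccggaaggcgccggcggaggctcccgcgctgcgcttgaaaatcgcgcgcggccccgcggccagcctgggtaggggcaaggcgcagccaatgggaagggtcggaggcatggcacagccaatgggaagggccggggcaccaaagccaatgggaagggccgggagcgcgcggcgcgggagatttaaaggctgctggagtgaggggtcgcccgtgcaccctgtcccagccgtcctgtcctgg
PCNA: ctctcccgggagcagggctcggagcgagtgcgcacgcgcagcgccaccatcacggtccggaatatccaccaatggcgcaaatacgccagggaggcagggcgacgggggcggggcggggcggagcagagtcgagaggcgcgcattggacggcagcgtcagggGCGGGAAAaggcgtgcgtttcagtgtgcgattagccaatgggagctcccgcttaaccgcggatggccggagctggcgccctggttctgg
FEN1: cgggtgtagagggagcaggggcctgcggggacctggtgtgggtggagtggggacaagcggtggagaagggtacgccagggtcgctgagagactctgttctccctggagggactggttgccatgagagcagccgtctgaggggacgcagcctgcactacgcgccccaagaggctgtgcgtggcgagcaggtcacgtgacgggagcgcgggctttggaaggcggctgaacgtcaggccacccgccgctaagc
ORC3: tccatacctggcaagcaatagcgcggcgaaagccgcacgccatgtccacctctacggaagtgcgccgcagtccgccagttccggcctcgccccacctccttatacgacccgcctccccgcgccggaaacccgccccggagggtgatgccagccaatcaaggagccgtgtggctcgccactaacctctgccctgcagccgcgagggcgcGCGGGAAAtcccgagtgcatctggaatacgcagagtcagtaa
RPA1: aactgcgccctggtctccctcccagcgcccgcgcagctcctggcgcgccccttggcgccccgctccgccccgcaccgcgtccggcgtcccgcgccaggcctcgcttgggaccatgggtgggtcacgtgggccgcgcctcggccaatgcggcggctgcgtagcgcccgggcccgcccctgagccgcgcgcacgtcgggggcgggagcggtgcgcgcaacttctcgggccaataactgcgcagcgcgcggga
Matches were present in CDC6 and PCNA, which fell, and in ORC3, which rose, and these letters were not found in the windows of RRM2, FEN1 and RPA1.

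Promoters of 300 bases (250 before to 50 after the start) were searched in the same way for the 39 members with an entry; MCM4, MCM5, GINS4, POLD3, RPA2 and RPA3 had none. The E2F site was searched as TTTCCCGC, TTTCGCGC, TTTGCCGC and TTTGGCGC on both strands, and 18 of the 39 promoters (46.2%) held at least 1 match, as against 3.33% of 27305 promoters in the table. Among the 12425 tested genes with a promoter entry, 4.88% held an E2F match. In MCM2 and MCM6 matches on opposite strands overlapped. Downregulated genes were found with and without the site, with 11 of 18 lower and 2 higher (ORC3 and POLA1) among promoters with a match and 13 of 21 lower and 2 higher among those without. Over all tested genes whose promoter held the site, 28.4% were lower and 29% higher, with a median of 0.02. The members' median log2 fold change was -0.21 with a match and -0.14 without. The CCAAT box (CCAAT, both strands) was found in 22 promoters (56.4%; 35.7% of all promoters) and the CHR element (TTTGAA or TTCGAA, both strands) in 2, MCM6 and RRM1 (5.13%; 16.6% of all). An IRF site, GAAA repeated after any pair of bases and searched on both strands, was found in 1 member promoter, that of ORC2 (2.56%; 3.65% of all), and ORC2 was not called (log2 fold change -0.10 ± 0.06, adjusted p = 0.195). Of the 22 members with a CCAAT box, 11 were lower and 3 higher (median log2 fold change -0.11). Of the 17 without it, 13 were lower and 1 higher (median -0.20), so this split went the other way from that of the E2F site. Among tested genes with a promoter entry, the CCAAT box was in 36.2%, the CHR element in 11.7% and the IRF site in 2.91%. Over all tested genes whose promoter held the IRF site, 39.6% were lower and 20.2% higher, with a median of -0.12. The same shares were 27.5% and 28.8% for the CCAAT box and 29.3% and 25.9% for the CHR element. Shares over all 12425 tested genes with a promoter entry were not computed. Matches are a description of the letters and do not show binding.

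The 3 licensing factors were all downregulated, where 26.4% of all genes tested were lower. CDC6 (chr17:40287633-40304657, GRCh38), the ATPase that joins ORC at the origin, was at 68.5, 67.9 and 65.0 CPM in the control samples and at 41.1, 42.1 and 39.4 CPM in the IRF1shRNA samples. The groups were far apart, and CDC6 fell to 60.9% of control, the largest decrease among the members (log2 fold change -0.72 ± 0.04, adjusted p = 5.02e-10). CDT1, which brings the MCM ring to the origin, was at 72.5, 74.7 and 80.3 CPM in control and 58.4, 49.9 and 56.7 CPM in IRF1shRNA samples. Again every IRF1shRNA value was below every control value (-0.46 ± 0.06, adjusted p = 2.34e-06). GMNN encodes geminin, the inhibitor that holds CDT1 inactive after licensing, and was at 59.2, 61.1 and 58.0 CPM in control and 54.7, 56.6 and 51.7 CPM in IRF1shRNA samples. Its groups did not overlap but lay close to each other (-0.13 ± 0.05, adjusted p = 0.0225). The GMNN call was lost without control replicate 2 (adjusted p = 0.142), IRF1shRNA replicate 1 (0.0516) or IRF1shRNA replicate 3 (0.136), and under 6 of the 15 alternatives in all.

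The 6 subunits of ORC, which marks origins, did not move together. Lower calls numbered 3 (50%) and higher calls 1 (16.7%), against 26.4% and 24.1% of all genes tested. ORC3 (chr6:87590067-87667453) was at 57.5, 54.5 and 54.2 CPM in control and 67.9, 75.3 and 67.4 CPM in IRF1shRNA samples. It was upregulated in all 3 libraries (0.34 ± 0.05, adjusted p = 1.53e-05). ORC1, the subunit whose level is best known to vary through the cell cycle, fell from 70.2 ± 1.92 to 59.8 ± 4.02 CPM (SD, n = 3 each; adjusted p = 6.59e-04). ORC4 (-0.20 ± 0.06, adjusted p = 8.69e-03) and ORC5 (-0.17 ± 0.06, adjusted p = 0.0160) also fell, and ORC5 lost its call without control replicate 2 (0.0649) or IRF1shRNA replicate 1 (0.0727), with upper quartile (0.0674) or library size scaling (0.0837), and after thinning (0.0889). ORC6 (-0.02 ± 0.05, adjusted p = 0.785) and ORC2 were not called, although ORC2 was lower without IRF1shRNA replicate 2 (-0.17, adjusted p = 0.0147).

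In the helicase ring, 4 of 6 subunits (66.7%) were downregulated and by unequal amounts, where 26.4% of all genes tested were lower. MCM5 (chr22:35400063-35425430) was at 99.99, 104 and 111 CPM in control and 69.5, 64.5 and 68.2 CPM in IRF1shRNA samples. The decrease, to 64.1% of control, was several times the spread within either group (-0.64 ± 0.05, adjusted p = 5.53e-09). MCM2 was at 97.7, 100.4 and 107 CPM in control and 93.7, 89.1 and 93.5 CPM in IRF1shRNA samples. It lay lower in all 3 silenced libraries by a small margin (-0.14 ± 0.04, adjusted p = 0.0141), and its call was lost without control replicate 3 (0.0741) or IRF1shRNA replicate 2 (0.0722), with upper quartile (0.0797) or library size scaling (0.103), and after thinning to the smallest total (0.0762). Other annotated genes lie opposite 23.6% of the MCM2 exon bases. MCM4, the member with the highest CPM, fell from 459 ± 5.49 to 358 ± 2.97 CPM (adjusted p = 8.09e-07), and MCM7 from 281 ± 7.58 to 251 ± 1.68 CPM (adjusted p = 3.00e-03). MCM3 (0.07 ± 0.04, adjusted p = 0.215) and MCM6 (0.00 ± 0.05, adjusted p = 0.948) were not called, and MCM3 passed as higher when samples were scaled by the upper quartile (adjusted p = 0.0386) or by library size alone (0.0221).

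Of the 6 genes for helicase activation, 4 (66.7%) were downregulated and 1 (16.7%) upregulated, against 26.4% and 24.1% of all genes tested. GINS1 (chr20:25407727-25452628) was at 78.6, 78.6 and 73.2 CPM in control and 52.1, 49.9 and 47.3 CPM in IRF1shRNA samples, a fall to 64.8% of control (-0.63 ± 0.05, adjusted p = 6.95e-09). GINS4, a partner of GINS1 in the same tetramer, was at 58.4, 63.6 and 58.2 CPM in control and 76.9, 76.6 and 70.1 CPM in IRF1shRNA samples. Thus the 2 subunits moved in opposite directions with no overlap of groups in either (GINS4, 0.31 ± 0.05, adjusted p = 4.53e-05). Of the GINS4 exon bases, 23.6% lie opposite other annotated genes, whose reads can be told apart only if strand was used in counting. GINS3 fell from 16.2 ± 0.382 to 11.7 ± 0.690 CPM (adjusted p = 1.76e-05), whereas GINS2 was not called (-0.06 ± 0.06, adjusted p = 0.444). CDC45 (-0.19 ± 0.06, adjusted p = 0.0115) and MCM10 (-0.12 ± 0.05, adjusted p = 0.0422), which help turn the loaded ring into a moving helicase, were slightly lower. Both calls depended on the setting, with MCM10 lost under 10 alternatives (adjusted p up to 0.234) and CDC45 under 4 (up to 0.0641). Among single libraries, leaving out control replicate 2 or IRF1shRNA replicate 1 ended both calls, control replicate 3 that of CDC45, and control replicate 1 or IRF1shRNA replicate 3 that of MCM10.

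Polymerase alpha-primase, which starts each new strand, was likewise split. PRIM1 (chr12:56731596-56752373), the catalytic primase subunit, was at 18.2, 18.7 and 16.9 CPM in control and 11.95, 12.4 and 10.5 CPM in IRF1shRNA samples. It fell to 64.9% of control (-0.63 ± 0.08, adjusted p = 1.87e-06), and 21.6% of its exon bases are shared with other annotated genes. POLA1, the catalytic polymerase subunit, was at 85.3, 80.7 and 76.6 CPM in control and 89.1, 102 and 94.4 CPM in IRF1shRNA samples. It was higher in all 3 silenced libraries, the nearest values of the groups being 85.3 and 89.1 CPM (0.23 ± 0.05, adjusted p = 1.22e-03). POLA2 was lower (-0.24 ± 0.07, adjusted p = 0.0106), but 35.1% of its exon bases are shared with another gene and the call was lost without IRF1shRNA replicate 3 (0.0519). PRIM2 was not called (-0.05 ± 0.05, adjusted p = 0.387).

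The sliding clamp and 4 of the 5 subunits of its loader were downregulated. This is 83.3% of the role, against 26.4% of all genes tested. PCNA (chr20:5114953-5126626), which tethers the polymerases to DNA, was at 192, 193 and 201 CPM in control and 131, 135 and 127 CPM in IRF1shRNA samples. All 3 silenced libraries were lower, at 66.9% of control on average (-0.58 ± 0.04, adjusted p = 4.33e-09). Among the loader subunits, RFC3 fell from 91.4 ± 3.57 to 64.7 ± 2.01 CPM (adjusted p = 5.33e-08), RFC4 from 77.6 ± 1.04 to 66.6 ± 4.63 CPM (adjusted p = 8.76e-04) and RFC5 from 40.4 ± 1.39 to 33.7 ± 0.181 CPM (adjusted p = 2.82e-04). RFC1, the large subunit, was not called (-0.03 ± 0.05, adjusted p = 0.585). RFC2 was slightly lower (-0.12 ± 0.04, adjusted p = 0.0336), and this call was lost under 11 alternatives (adjusted p up to 0.205), among them those without control replicate 2, control replicate 3, IRF1shRNA replicate 2 or IRF1shRNA replicate 3.

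Of the 5 genes for the polymerases that extend the strands, 1 (20%) was downregulated and none was upregulated. Among all genes tested 26.4% were lower and 24.1% higher, so the share lower was not above that of all genes. POLD3, an accessory subunit of polymerase delta, was at 65.0, 64.5 and 63.7 CPM in control and 54.4, 55.6 and 57.5 CPM in IRF1shRNA samples. The silenced samples were all lower (-0.21 ± 0.04, adjusted p = 4.72e-04). The catalytic subunits POLD1 (-0.14 ± 0.06, adjusted p = 0.0539) and POLE (0.03 ± 0.04, adjusted p = 0.609) were not called. POLD2 (-0.10 ± 0.05, adjusted p = 0.155) and POLE2 (-0.19 ± 0.08, adjusted p = 0.0582), further accessory subunits, also missed the threshold. Leaving out 1 library made a call of lower for POLD1 (without IRF1shRNA replicate 3, adjusted p = 0.0213), POLD2 (without control replicate 1, 0.0398) and POLE2 (without IRF1shRNA replicate 2, 0.0224), so these genes cannot be said to be stable.

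The enzymes that finish Okazaki fragments differed in direction. FEN1 (chr11:61792637-61797244), the nuclease that trims the displaced flap, was at 95.5, 100.3 and 104 CPM in control and 129, 138 and 128 CPM in IRF1shRNA samples. It had the largest increase among the members, to 131% of control (0.39 ± 0.05, adjusted p = 1.45e-06). LIG1, the ligase that seals the nick FEN1 leaves, fell from 41.5 ± 1.20 to 32.3 ± 0.759 CPM (-0.36 ± 0.05, adjusted p = 9.92e-06).

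All 3 subunits of RPA, the complex that protects single-stranded DNA, were upregulated, where 24.1% of all genes tested were higher. RPA1 (chr17:1829702-1900082) was at 264, 262 and 261 CPM in control and 295, 338 and 305 CPM in IRF1shRNA samples (0.25 ± 0.05, adjusted p = 2.81e-04). RPA3 was at 34.3, 33.1 and 35.1 CPM in control and 43.1, 43.0 and 39.5 CPM in IRF1shRNA samples (0.29 ± 0.05, adjusted p = 1.63e-04). RPA2 was at 83.8, 87.0 and 86.8 CPM in control and 97.5, 98.6 and 89.7 CPM in IRF1shRNA samples. The groups did not overlap for any of the 3, with RPA2 the smallest increase (0.15 ± 0.05, adjusted p = 0.0111) and the one that was lost without IRF1shRNA replicate 1 (0.0606). The increases were of 19.3%, 10.9% and 22.5% for RPA1, RPA2 and RPA3.

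The 4 enzymes that make deoxynucleotides were all downregulated, where 26.4% of all genes tested were lower. RRM2 (chr2:10120698-10131419), the subunit of ribonucleotide reductase that peaks in S phase, was at 444, 447 and 426 CPM in control and 292, 296 and 274.5 CPM in IRF1shRNA samples. Its level fell to 65.5% of control in libraries that varied little within a group (-0.61 ± 0.04, adjusted p = 3.54e-09), and 20.2% of its exon bases are shared with another annotated gene. RRM1, the other subunit, fell from 166 ± 2.18 to 149 ± 8.26 CPM (adjusted p = 5.75e-03). TK1, the thymidine salvage kinase, fell from 93.6 ± 6.20 to 77.3 ± 3.61 CPM (adjusted p = 2.21e-04). TYMS, which makes thymidylate, fell from 22.6 ± 1.23 to 17.8 ± 0.214 CPM (adjusted p = 1.69e-04), although 46.6% of its exon bases lie opposite ENOSF1 and TYMSOS, from which its reads can be told apart only if strand was used in counting. Without TYMS and POLA2, 25 of 43 members were lower and 7 higher, against 26.4% and 24.1% of all genes tested.

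**Figure D3:**
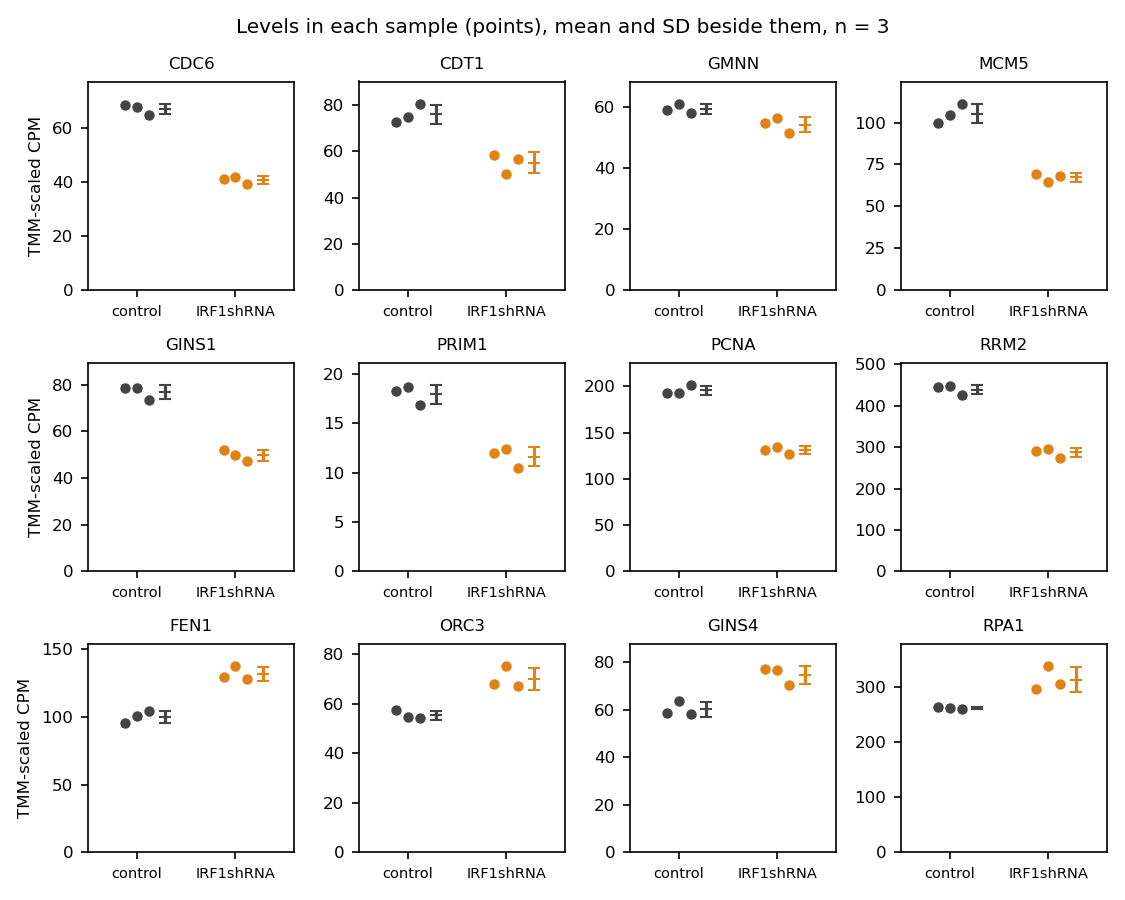
TMM-scaled CPM (y axis, from 0) of 12 replication genes in the 3 control and 3 IRF1shRNA samples (points), with the mean and SD (n = 3) beside them. The groups are apart in all 12 panels, with IRF1shRNA lower from CDC6 to RRM2 and higher for FEN1, ORC3, GINS4 and RPA1.

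Ratios of counts within a library, which do not depend on scaling between libraries, describe how the balance of partners shifted. The 10 ratios were chosen after the values had been seen and are given without a test. PCNA to FEN1 went from 1.96 ± 0.0483 in control to 0.996 ± 0.0177 in IRF1shRNA samples (SD, n = 3 each), and CDC6 to ORC3 from 1.21 ± 0.0288 to 0.583 ± 0.0232. GINS1 to GINS4, within 1 complex, went from 1.28 ± 0.0581 to 0.668 ± 0.0138. PRIM1 to POLA1 changed by -44.8%, LIG1 to FEN1 by -40.7%, MCM5 to MCM3 by -38.7%, RRM2 to RRM1 by -26.6% and CDT1 to its inhibitor GMNN by -20.5%. The summed MCM2 to MCM7 counts relative to the summed RPA counts went from 3.31 ± 0.0671 to 2.45 ± 0.104. In each of these the groups did not overlap. The exception was RPA3 to RPA1, at 0.130 ± 0.00439 in control and 0.134 ± 0.0100 in IRF1shRNA samples with overlapping values.

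**Figure D4:**
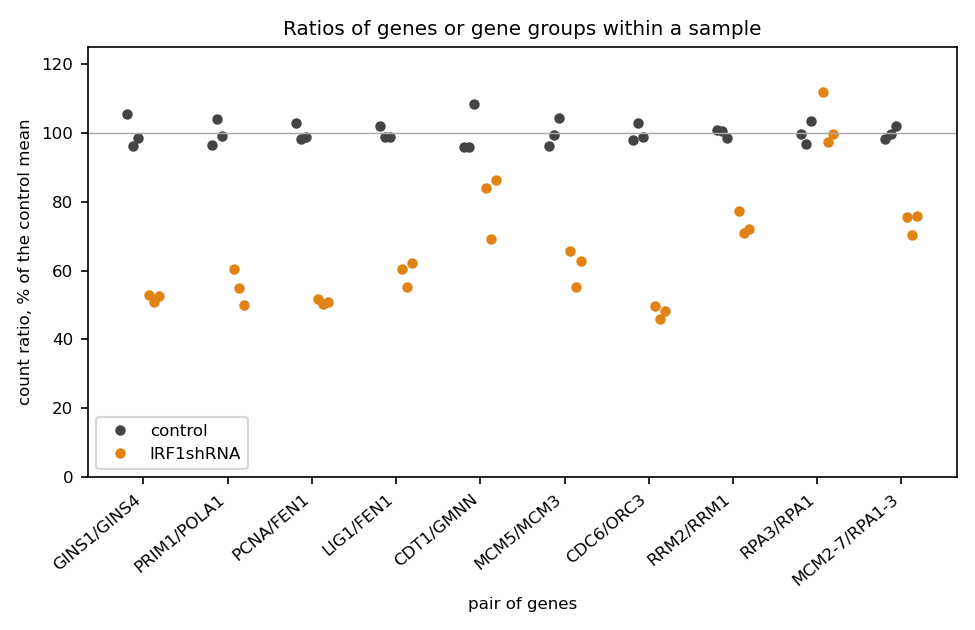
Count ratio of each of 10 pairs of replication genes or gene groups (x axis) in each sample, as a percent of the control mean (y axis, from 0). The IRF1shRNA points lie below the control points for 9 pairs, down to a mean change of -51.9% for CDC6 to ORC3, and overlap them for RPA3 to RPA1.

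Per kilobase of exon (GENCODE 29 exon unions), the levels in control cells spanned from 132.9 CPM per kb for PCNA to 2.16 CPM per kb for POLA2. Next to PCNA came RRM2 at 82.4, MCM4 at 65.8, MCM7 at 64.0 and MCM3 at 62.5 CPM per kb. PCNA and RRM2 stood apart from their neighbors, whereas MCM4 overlapped MCM7 and MCM7 overlapped MCM3, and in all 27 of 44 neighboring pairs in the order overlapped. In IRF1shRNA cells PCNA was still first, at 89.0 CPM per kb, and MCM3 took the next place at 65.5. MCM5 moved from place 24 to 33 and CDC6 from 28 to 35, whereas RPA3 moved from 32 to 25 and GINS4 from 30 to 24. GINS1 lay above GINS4 in control cells, at 18.9 and 10.97 CPM per kb, and below it in IRF1shRNA cells, at 12.2 and 13.6 CPM per kb. Exon unions include exons that a given transcript lacks, so these levels may understate those per transcript.

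**Figure D5:**
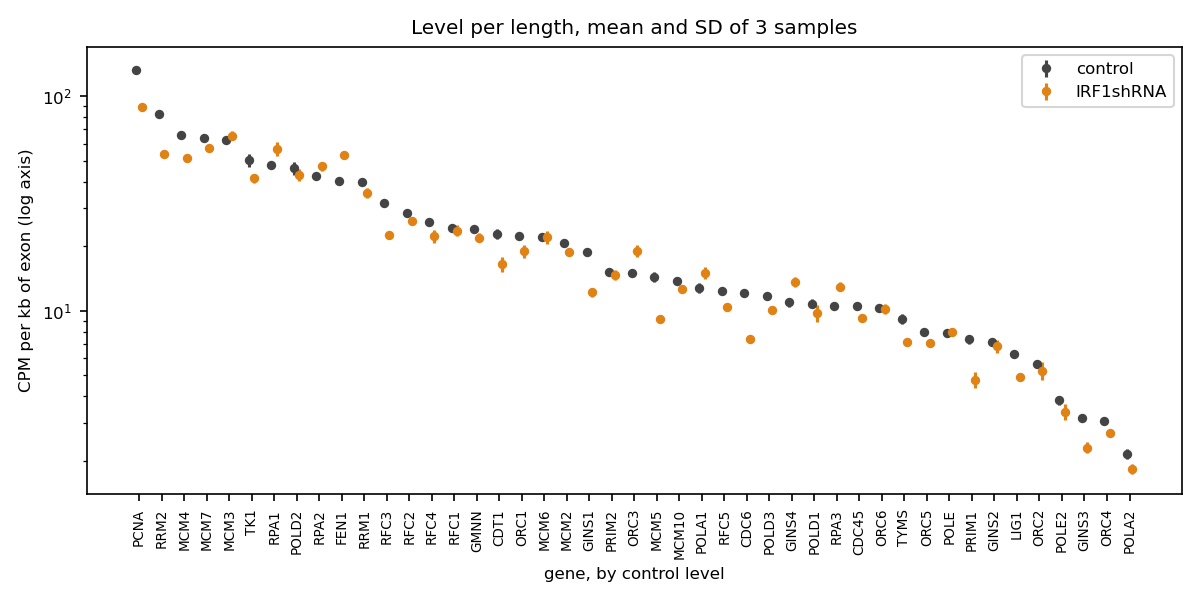
CPM per kilobase of exon (y axis, log scale) for the 45 replication genes in order of their control level (x axis), as mean and SD of 3 samples per group. PCNA is highest in both groups at 132.9 and 89.0 CPM per kb, and the RPA genes, FEN1, ORC3, GINS4 and POLA1 are among those with the IRF1shRNA point above the control point.

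Other genes of the same pathways were examined from 5 lists. Of 39 further replication fork and licensing genes, 16 (41%) were lower and 4 (10.3%) higher, against 26.4% and 24.1% of all genes tested. Their median log2 fold change was -0.10. The decreases with the smallest adjusted p were those of UHRF1, which recruits the maintenance DNA methyltransferase to replicated DNA, from 205 ± 2.64 to 112 ± 2.45 CPM (-0.86 ± 0.04, adjusted p = 1.52e-11), and FAM111A, a PCNA-binding protease, from 35.1 ± 1.27 to 14.7 ± 0.568 CPM (-1.26 ± 0.06, adjusted p = 2.17e-11). Among the increases were TIPIN, of the fork protection complex, from 13.8 ± 0.278 to 21.3 ± 1.55 CPM (0.63 ± 0.07, adjusted p = 6.12e-07), and POLE4, a small subunit of polymerase epsilon (0.31 ± 0.06, adjusted p = 2.43e-04). RNASEH2A (38 to 120 counts per library) and CHTF8 (22 to 103) were not called, at counts too low to resolve small changes. Scaled by library size alone, 9 of this list were lower and 7 higher, and without control replicate 2, 10 were lower and 4 higher.

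Of 26 further nucleotide supply genes, 11 (42.3%) were lower and 3 (11.5%) higher (median -0.10), against 26.4% and 24.1% of all genes tested. SAMHD1, the phosphohydrolase that degrades deoxynucleotides, fell from 198 ± 9.13 to 75.8 ± 4.74 CPM (-1.39 ± 0.05, adjusted p = 7.10e-13), a larger change than that of any of the 45 members. The CTP synthase CTPS2 fell to 45.9% of control (-1.13 ± 0.07, adjusted p = 3.82e-10), whereas the purine synthesis enzymes ADSL (0.58 ± 0.07, adjusted p = 2.95e-06) and IMPDH2 (0.14 ± 0.04, adjusted p = 0.0144) rose. The IMPDH2 call was lost without control replicate 1 (0.0680), control replicate 2 (0.0668) or IRF1shRNA replicate 2 (0.0520). With samples scaled by the upper quartile the split was 11 lower and 6 higher, and by library size alone 10 and 6. The number higher was 1 without control replicate 1 or 2 and 2 without IRF1shRNA replicate 1 or 2.

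Of 32 genes that control entry into S phase, 14 (43.8%) were lower and 8 (25%) higher (median -0.06), against 26.4% and 24.1% of all genes tested. The share higher was thus near that of all genes. CCND1, the cyclin that starts RB phosphorylation, was at 91.2, 97.2 and 83.2 CPM in control and 18.8, 16.1 and 16.4 CPM in IRF1shRNA samples (-2.40 ± 0.07, adjusted p = 1.66e-14), and the CDK inhibitor CDKN1A fell to 47.8% of control (-1.06 ± 0.06, adjusted p = 1.32e-10). CDK6 (0.54 ± 0.04, adjusted p = 2.06e-08) and the CDK inhibitor CDKN1B (0.53 ± 0.04, adjusted p = 1.74e-08) rose. RB1, which restrains E2F, fell from 30.2 ± 1.67 to 22.2 ± 1.37 CPM (adjusted p = 1.52e-05), and E2F1 was slightly lower, going from 84.9 ± 2.83 to 78.2 ± 2.67 CPM (adjusted p = 0.0323). The E2F1 call was lost under 9 of the 15 alternatives, among them those without control replicate 2 (0.0631), control replicate 3 (0.130), IRF1shRNA replicate 2 (0.141) or IRF1shRNA replicate 3 (0.0606). Activators and inhibitors of S-phase entry were both among the genes that fell and those that rose. CCND2 (24 to 64 counts per library) and CDKN1C (8 to 34) were not called, at counts too low to resolve small changes.

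Of 17 replication stress genes, 5 (29.4%) were lower and 5 (29.4%) higher (median 0.03), shares near the 26.4% and 24.1% of all genes tested, and with samples scaled by library size alone or by the upper quartile 3 were lower and 7 higher. RAD18, a ubiquitin ligase that acts on PCNA at stalled forks, fell to 66.0% of control (-0.60 ± 0.04, adjusted p = 3.70e-09), and SLFN11, which blocks stressed forks, to 67.0% (-0.58 ± 0.07, adjusted p = 3.66e-06). HLTF, a fork remodeler (0.29 ± 0.04, adjusted p = 2.23e-05), and ATRIP, the partner of the ATR kinase (0.29 ± 0.06, adjusted p = 2.98e-04), rose. Without control replicate 1 or IRF1shRNA replicate 1 the number lower was 3.

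Of 25 markers of G2 and mitosis, 11 (44%) were lower, 3 (12%) higher and 11 not called (median -0.10). Of all genes tested, 26.4% were lower and 24.1% higher. The summed level of the markers was 6901 to 7098 CPM in control and 6319 to 6830 CPM in IRF1shRNA samples. CDK1 fell to 61.2% (-0.71 ± 0.05, adjusted p = 1.05e-09) and PLK1 to 66.2% of control (-0.59 ± 0.04, adjusted p = 6.58e-09), whereas the kinetochore genes CENPF (0.26 ± 0.05, adjusted p = 3.62e-04) and CENPE (0.28 ± 0.06, adjusted p = 6.27e-04) rose. NUSAP1, among those not called, had only 26 to 105 counts per library (0.16 ± 0.24), too few to resolve small changes. With samples scaled by the upper quartile 11 markers were lower and 5 higher, and by library size alone 11 and 6. The part of cell cycle distribution in the levels of the replication genes was not tested.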

How the data were processed

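Raw counts per gene symbol, as whole numbers with no normalization, were deposited by the authors for all 6 samples. Libraries were made with the TruSeq Stranded mRNA kit. The submitters' processing notes name CASAVA 1.8.2, STAR 2.7.9a, featureCounts, DESeq2 1.24.0 and GRCh38.p7; the annotation and the strand and pair settings of the counting are not given in the sources used here. Among counts of 2 to 11, 72.1% to 75.2% of values per sample were even, a pattern seen when mates are counted separately, so halved counts were fitted as an alternative.

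Differential expression was tested with edgeR 4.0.16 (R 4.3.3), by its quasi-likelihood test with TMM scaling, filterByExpr (minimum count 10), group as the only factor and Benjamini-Hochberg adjustment over all 18851 genes tested, at 0.05. Standard errors were derived from the fold change and its F statistic. The script was tested on simulated data. Intervals and floors for counts were not needed, and the total counts are those of the deposited columns. Alternatives were DESeq2 1.42.0, its size factors, upper quartile and library size scaling, no filter, at least 1 CPM in at least 3 samples, halved counts, thinning to the smallest total, each replicate left out, and a replicate block; leaving out members that share over 25% of exon bases was chosen after seeing the data.

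The members, lists, named genes and tests were chosen with earlier results of these data known. Values in every sample are given for the member with the smallest adjusted p in each of 10 roles, members that rose, members that changed by at least 0.5 on the log2 scale, and PCNA, CDC6, CDT1, GMNN, MCM2 and RRM2. From each other list the 2 genes with the smallest adjusted p in each direction were named, with RB1, E2F1, CDKN1A, SAMHD1 and SLFN11. Gene coordinates, exon lengths and shared exon bases came from GENCODE 29 (GRCh38) and promoters from RefSeq (GRCh38.p14). H2AX and ADSS2 were matched through RefSeq synonyms. Protein sequences were not analysed here.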

Additional observations from a re-analysis of the deposited data

How the results depend on the processing

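Of the counts and medians over the members and lists, 180 values stayed within 1.5 times the reported count, or within the spread between replicates for the median, and 17 moved. For the 39 genes named by rule, 561 values under an alternative stayed on their side of the threshold, 24 lost significance and 0 reversed. Over all 45 members, most of which are outside that rule, 43 values lost a call, 9 gained one and 0 reversed with a call in either fit. Changes of sign without a call were not counted as reversals. They occurred for ORC6 (-0.05 to 0.03), RFC1 (-0.08 to 0.02) and MCM6 (-0.05 to 0.06). The members lower ranged from 21 to 28 and those higher from 6 to 8. Over all genes tested, 4971 were lower and 4548 higher in the main fit. With library size alone 4309 were lower and 5267 higher, and with upper quartile scaling 4413 and 5171. Under these scalings more genes were thus called higher than lower. The median of the members was -0.12 with upper quartile scaling, -0.11 with library size alone and -0.14 with at least 1 CPM in at least 3 samples; the first 2 moved the median of all genes to 0.04 and 0.05. With upper quartile scaling, nucleotide supply genes higher were 6, replication stress genes lower 3 and G2 and mitosis genes higher 5. With library size alone these were 6, 3 and 6, and fork and licensing genes were 9 lower and 7 higher. Thinned to the smallest total, nucleotide supply genes higher were 5.

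With 1 replicate left out, members lower were 22 to 27, higher 6 to 7 and their median -0.18 to -0.16; fork and licensing genes 10 to 17 lower and 4 higher; nucleotide supply genes 11 to 13 lower and 1 to 3 higher; G1/S genes 13 to 14 lower and 7 to 8 higher; replication stress genes 3 to 5 lower and 4 to 7 higher; and G2 and mitosis genes 10 to 15 lower and 3 to 4 higher. With 1 replicate left out, 4413 to 4858 of all genes tested were lower and 3915 to 4447 higher. Over all alternatives 13 members changed their call at least once and 6 were never called.

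The replicate numbers are shared between groups. Same-numbered samples deviated together with correlations of -0.0751, 0.126 and 0.201, and different-numbered samples with correlations from -0.218 to 0.117. These values do not settle whether the samples were paired. The main fit took no pairs, and a replicate block was fitted as an alternative. With the replicate block 28 members were lower and 7 higher, with a median of -0.16, and POLD1 became called (adjusted p = 0.0161). Over all genes tested the block gave 4972 lower and 4490 higher. Changes near 0.1 on the log2 scale were at the limit of what 3 samples per group resolved.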
